A study of Drosophila melanogaster with 8 samples.

Results

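The nuclear pore complex is the protein channel through which RNA and protein pass between nucleus and cytoplasm, and 30 Drosophila genes that encode its subunits and close partners were followed here in ovaries mutant for otefin (ote). The genes were taken by name, from a list of known nucleoporins, and not by their measured values, although earlier results of these data were known at that time. Of the 30, 28 had a probe set that the annotation assigns to that gene alone, with 1 probe set for each, out of 11982 genes measured in all. Nup58, of the central channel, and Gp210, of the membrane ring, had none and are not described further.

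Each pore is built from modules. An outer ring or Y complex coats both faces of the nuclear envelope, an inner ring links it to the membrane and to the central channel of FG nucleoporins, and filaments on the cytoplasmic face and a basket on the nuclear face handle export and import. Pores sit in the same envelope as the nuclear lamina, of which Ote is a LEM domain protein, and the Drosophila germ line loads the oocyte with pore material stored in stacked membranes called annulate lamellae.

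Ovary RNA from virgin females was hybridized to 8 Affymetrix Drosophila 2.0 arrays, 1 for each pool of about 100 ovary pairs, with 4 arrays labelled null and 4 labelled het. The labels give het as otefinPk with a chk2 allele over the CyO balancer, which supplies wild-type ote, and null as the same otefinPk and chk2 chromosome over otefinG. Replicates 1 and 2 of each label carried Chk2P30 and replicates 3 and 4 carried Chk2P6, so that every female, het or null, had 1 mutant copy of chk2 (the gene of a DNA damage checkpoint kinase) and at least 1 mutant copy of ote, and none was wild type. The sources differ on 2 points. The labels put otefinPk on the P30 chromosome where the methods put B279G, and the labels give an age of 4 to 6 h after eclosion where the methods give 1 day. Per the methods, PK is a premature stop and B279G a transposon insertion, and neither allele makes Ote protein. The null and het labels also differ in the chromosome opposite (otefinG or CyO), and the P6 and P30 arrays in whatever else those chromosomes and stocks carry, and these cannot be told apart from the alleles themselves.

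The deposited values are log2 signals, on which a difference of 1 is a 2-fold change. Array medians lay between 5.61 and 5.72 and correlations between arrays between 0.957 and 0.990, and precision is limited by how few arrays there are. For Ote, het 1 to 4 gave 9.26, 7.27, 9.66 and 9.29, and null 1 to 4 gave 7.58, 7.48, 8.56 and 8.66. The array labelled het 2 therefore lay below every null array for the mutated gene, against its label, and results below are given with and without it where it decides them. Of the 10 germ line markers, osk varied least, between 13.29 and 13.56, and all its null arrays lay below all its het arrays. The labels did not overlap for 1.82% of all probe sets. The other germ line markers had log2 ranges over the arrays from 0.72 (aub) to 1.78 (bam). Of the follicle cell markers slbo was near the floor of the arrays (3.76 to 5.05). Salivary gland glue genes, which an ovary should lack, had list means of 9.60 and 9.004 in het 1 and null 1 and of 3.94 to 5.36 in the other 6 arrays.

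Nuclear pore RNAs were well represented in the ovary. For 27 of the 28 genes the signal was above the median of all probe sets, 5.66, on every array, the exception being Elys, which fell under it in het 2 and null 2. Mean signals of the 28 ran from 6.77 for Elys to 11.93 for Nup62, a spread that also reflects the probes and is not read as an order of RNA abundance. Because whole ovaries were measured, fewer cells of a type and less RNA per cell cannot be told apart in any of the values that follow.

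The pore genes moved together between arrays, and the arrays that were high or low for them did not follow the null and het labels. The mean log2 signal of the 28 genes was 10.27, 9.66, 10.72 and 10.46 in het 1 to 4 and 10.17, 9.58, 10.80 and 9.96 in null 1 to 4. The arrays highest for the pore genes, het 3 and null 3, carried different labels, as did the lowest, het 2 and null 2. Of the 28 genes, 23 had their highest signal in het 3 or null 3 and 25 their lowest in het 2 or null 2. From the lowest to the highest array the mean covered 1.21 on the log2 scale, or 2.32-fold. By label the het arrays averaged 10.28 ± 0.45 and the null arrays 10.13 ± 0.51, and by chk2 background the mean was 9.92 ± 0.35 in P30 and 10.48 ± 0.38 in P6 (SD, n = 4 each). Array null 4 lay apart from the other 3 P6 arrays and within the range of the P30 arrays. Within P30, het 2 and null 2 lay below het 1 and null 1. Without null 4 the difference of the means, P6 minus P30, was 0.74 instead of 0.56. This mean was not computed without other arrays. The median difference over the 28 genes ran from 0.33 to 0.63 as each of the 8 arrays was left out in turn.

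**Figure D1:**
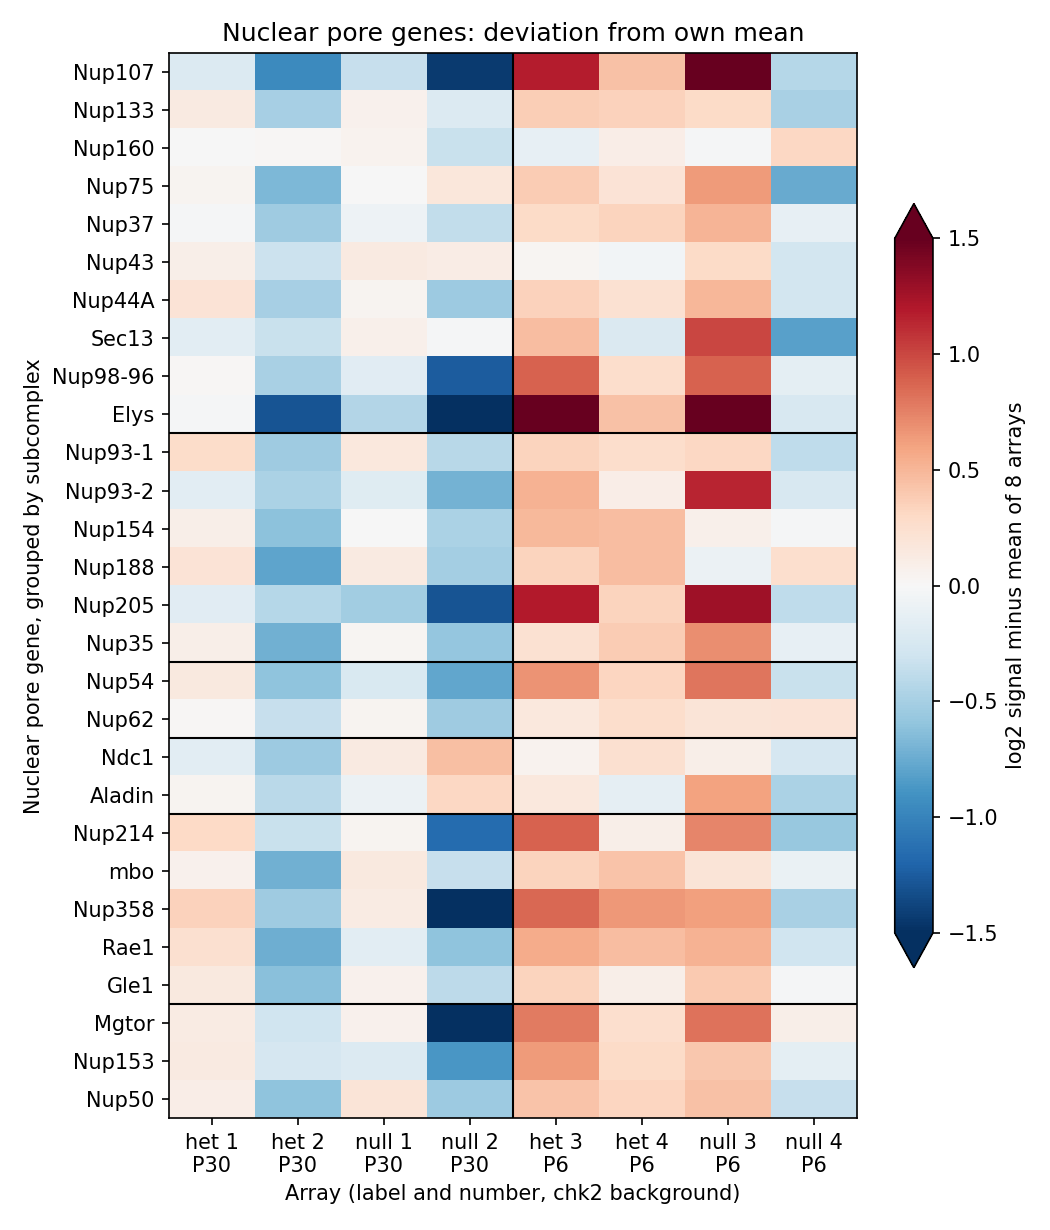
Each row is 1 of the 28 nuclear pore genes, grouped by module with black lines between the modules from outer ring (top) to basket (bottom), and each column is 1 array, with the 4 P30 arrays left of the vertical line and the 4 P6 arrays right of it. Colour is the log2 signal minus the gene's mean over the 8 arrays, cut off at 1.5 in both directions. Het 2 and null 2 are blue for most genes, with 27 and 24 of 28 below their own mean, and het 3 and null 3 red, with 27 and 26 of 28 above it.

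Between the chk2 backgrounds, nearly all pore genes had a higher mean in P6. Of the 28, 27 were higher in P6 and 1, Nup43, was lower, at -0.0054. Of all probe sets 45.1% were higher, and of the 9431 above the median signal 5103 were. With median centring Nup43 was higher as well, and with cyclic loess Aladin was lower. The median difference of the 28 was 0.49, against -0.02 over all 18769 probe sets and 0.05 over the probe sets above the median signal. In a limma fit with the label as covariate, 10 of 28 (35.7%) were higher at an unadjusted p under 0.05, a threshold that 5.31% of all probe sets, and 9.46% of those above the median signal, passed in that direction. After Benjamini-Hochberg adjustment over all probe sets by limma none of the 28 passed, the lowest adjusted p being 0.512, and 0 (0%) of all probe sets did. Of the 28, 3 were also past 2-fold, where 1.64% of all probe sets passed 2-fold with an unadjusted p under 0.05, and 1.11% in this direction. Single arrays decided how many passed the unadjusted threshold. The count was 2 without het 2, 2 without het 3, 1 without null 2, 3 without null 3 and 6 without het 4. It was 12 without het 1, 14 without null 1 and 15 without null 4. The share of all probe sets at this threshold was not counted in these fits. Over all probe sets the number past 2-fold and an unadjusted p under 0.05 also moved, from 148 to 672. The changes in the count are therefore not read as particular to the pore genes. Elys passed in each of the 8 fits that left out 1 array, Nup205 in 6 and Nup107 in 5. Nup153 and Nup98-96 passed in 4 of the 8, Nup62, Nup37, Nup54 and Nup154 in 3, and Nup93-2 in 2.

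In the outer ring, the scaffold that shapes the pore, Elys and Nup107 had the largest differences between the backgrounds of the 28 genes, while the median of the ring's genes was 0.33, beside 0.55 in the inner ring, 0.57 in the channel and at the cytoplasmic face and 0.59 in the basket. Signals are given in the order het 1, het 2, null 1, null 2 for P30 and het 3, het 4, null 3, null 4 for P6. Elys, the chromatin-binding subunit from which pores are seeded as the envelope re-forms, gave 6.75, 5.47, 6.33 and 5.08 in P30 and 8.44, 7.20, 8.33 and 6.52 in P6. Only null 4 among the P6 arrays fell under the highest P30 array, het 1. The difference was 1.72 (standard error 0.54), or 3.29-fold (unadjusted limma p = 0.0160; two-sided exact permutation p = 0.0571, with 0.0286 the smallest value that 4 arrays against 4 can give). It was 1.72 within het as well as within null.

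Nup107, the subunit at the stem of the Y, gave 8.78, 8.03, 8.64 and 7.55 in P30 and 10.16, 9.43, 10.72 and 8.56 in P6. Again null 4 was the P6 array that fell among the P30 arrays, and the difference was 1.47 (standard error 0.51), or 2.77-fold (unadjusted limma p = 0.0234; exact permutation test, p = 0.0857). Nup98-96, whose RNA encodes both the FG protein Nup98 and the Y subunit Nup96, gave 9.72, 9.22, 9.53 and 8.45 in P30 and 10.58, 9.96, 10.58 and 9.55 in P6. Here too the backgrounds overlapped only through null 4, and the difference was 0.94 (standard error 0.33; unadjusted limma p = 0.0265, exact permutation p = 0.0571).

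Of the 10 outer ring genes 9 were higher in P6, 4 of them at an unadjusted p under 0.05: Elys, Nup107, Nup98-96 and Nup37 (0.50, with a standard error of 0.18). The other 6 gave smaller mean differences, with 0.40 for Nup44A, the Seh1 of other species, 0.25 for Nup133, 0.23 for Nup75, 0.22 for Sec13, which also serves in coats of secretory vesicles, 0.13 for Nup160 and -0.0054 for Nup43. The subunits of 1 complex thus differed between the backgrounds by sizes from near 0 to 3.29-fold. Nup160 and Nup107 are partners in the same Y, yet Nup160 had the smallest spread over the arrays of all 28 genes (SD 0.18) and Nup107 the next to largest (SD 1.06, after 1.21 for Elys).

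In the inner ring all 6 genes were higher in P6, 3 of them at an unadjusted p under 0.05. Nup205, a large scaffold subunit, gave 9.70, 9.44, 9.35 and 8.57 in P30 and 11.06, 10.19, 11.14 and 9.48 in P6. Of the P6 arrays only null 4 lay within the P30 range, and the difference was 1.20 (standard error 0.40), or 2.30-fold (unadjusted limma p = 0.0196; exact permutation test, p = 0.0571). Nup188, its relative in the same ring, differed by 0.48 (standard error 0.26), and Nup35, which anchors the ring to the membrane, by 0.59 (0.26).

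Nup154, the fly Nup155, which is needed for egg and sperm formation, gave 11.97, 11.27, 11.88 and 11.40 in P30 and 12.37, 12.34, 11.95 and 11.87 in P6. The backgrounds overlapped in null 3 and null 4, and the difference was 0.50 (standard error 0.20; unadjusted limma p = 0.0397, exact permutation p = 0.143). Drosophila has duplicate genes for the ring's linker Nup93, and whether their probes cross-react was not analysed here. Nup93-1 gave 10.30, 9.49, 10.19 and 9.62 in P30 and 10.36, 10.29, 10.34 and 9.64 in P6, so that het 2, null 2 and null 4 stood below the other 5 arrays. Nup93-2 gave 9.45, 9.14, 9.44 and 8.91 in P30 and 10.14, 9.72, 10.76 and 9.38 in P6, with null 3 highest. The mean difference was 0.26 (standard error 0.25) for Nup93-1 and 0.76 (0.31; unadjusted limma p = 0.0444, exact permutation p = 0.0857) for Nup93-2, and the difference between the copies was not tested.

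Nup62, an FG nucleoporin that lines the central channel, was the only pore gene whose backgrounds did not overlap. It gave 11.95, 11.59, 11.97 and 11.40 in P30 and 12.09, 12.19, 12.13 and 12.14 in P6. The P6 arrays lay close together (12.14 ± 0.04, SD, n = 4), all above the highest P30 array (exact permutation p = 0.0286), as 2.64% of all probe sets did in this direction. The size was 0.41 (standard error 0.15), or 1.33-fold, and it was past the unadjusted limma threshold. Nup54, which forms the channel with Nup62, differed by 0.73 (0.30) and was past it too.

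At the cytoplasmic face all 5 genes had a higher mean in P6, and none passed the unadjusted threshold. The differences were 0.82 for Nup358, the large filament protein that binds RanGAP, 0.62 for Rae1, an mRNA export factor that binds Nup98, 0.57 for Nup214, 0.43 for mbo, the fly Nup88 and partner of Nup214, and 0.40 for Gle1, an activator of the export helicase. In the basket Nup153 passed the threshold and the other 2 genes had a higher mean. Nup153, which joins the basket to the pore, gave 10.69, 10.31, 10.36 and 9.69 in P30 and 11.20, 10.85, 10.96 and 10.42 in P6. As for Elys, only null 4 of P6 fell under the highest P30 array, and the difference was 0.59 (standard error 0.21; unadjusted limma p = 0.0249, exact permutation p = 0.0571). Megator (Mgtor, older symbol Mtor), the Tpr protein of the basket filaments, differed by 0.96 (standard error 0.43) and Nup50 by 0.43 (0.27).

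The membrane nucleoporin Ndc1 and Aladin, which Ndc1 anchors, showed mean differences near 0 between the backgrounds, 0.06 (standard error 0.22) and 0.07 (0.26). Within the labels, the background difference was positive for 27 of the 28 genes in het (median 0.61) and for 23 of 28 in null (median 0.39), and the 5 that were lower in P6 within null were Ndc1, Nup75, Nup43, Aladin and Nup133. The 13 genes on chromosome 2, which carries the ote and chk2 alleles, had a median difference of 0.48, and the 15 on the X and chromosome 3 a median of 0.50.

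**Figure D2:**
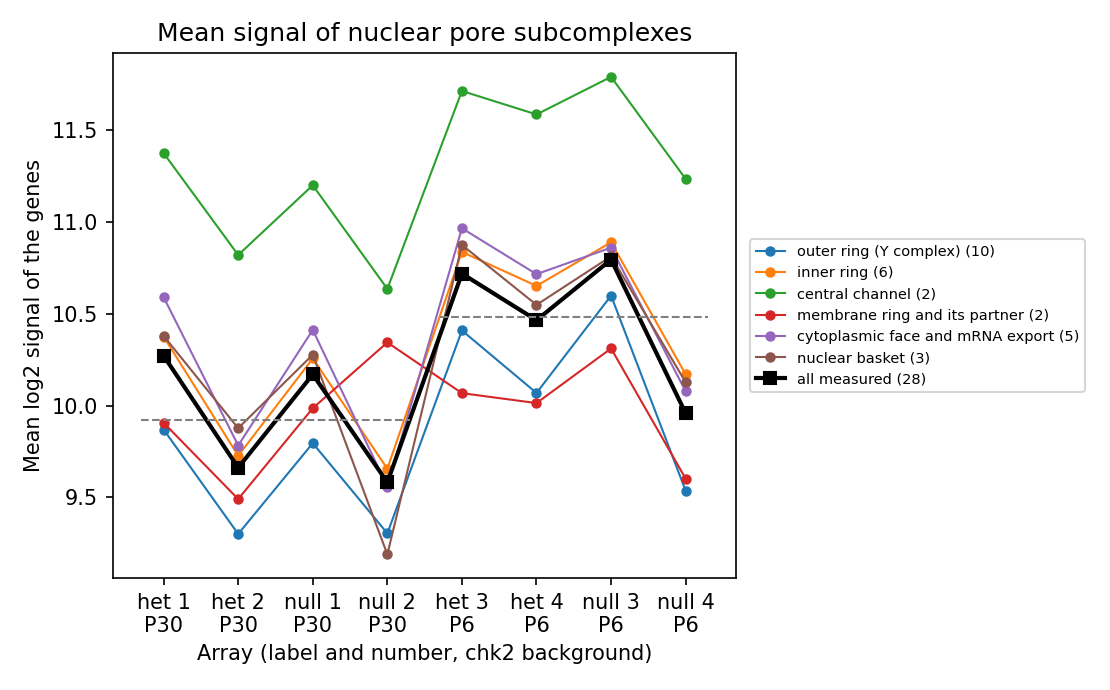
Points are the mean log2 signal of the measured genes of each module (number of genes in brackets) on each of the 8 arrays, black squares the mean of all 28, and dashed lines the mean of the 28 over the 4 P30 and the 4 P6 arrays (9.92 and 10.48). The lines join arrays only to make a module visible, and their heights cannot be compared between modules because the probes differ. All modules except the membrane ring and its partner dip in het 2 and null 2 and peak in het 3 or null 3.

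Between null and het, differences of the pore genes were mostly smaller than their standard errors, and none passed a test. Of the 28, 19 were lower and 9 higher in null (51.8% of all probe sets were lower), with a median of -0.13 and a range from -0.66 for Nup358 to 0.20 for Ndc1, beside a median of -0.0072 over all probe sets. By limma, 0 of 28 passed an adjusted p under 0.05 (0% of all probe sets did), 0 a 2-fold change with an unadjusted p under 0.05 (0.149%) and 0 an unadjusted p under 0.05 (2.25%), and an unmoderated test also gave 0. For none of the 28 were null and het arrays apart (1.82% of all probe sets were). The smallest exact permutation p was 0.257, for Nup358. Standard errors ran from 0.14 for Nup160 to 0.80 for Elys. In this fit, which has no term for the chk2 background, only Nup153, Nup214 and Nup358 differed by more than their own standard error. With the background as a block, the standard errors of these genes were 0.21, 0.39 and 0.43. The word only therefore holds for the fit without the block. With the block 0 of 28 passed an unadjusted p under 0.05 as well. In the fit without the block, Ote, the mutated gene, differed by -0.80 (standard error 0.55; unadjusted limma p = 0.185, exact permutation p = 0.229). It passed no threshold either, so the lack of calls is not read as a lack of difference.

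At the cytoplasmic face, Nup358 had the most negative difference of the 28 genes. It gave 11.74, 10.87, 12.26 and 12.05 in het 1 to 4 and 11.52, 9.83, 12.01 and 10.91 in null 1 to 4. Null 2 was the lowest array, and the other 3 null arrays lay among the het arrays. Its difference was -0.66 (standard error 0.49), -0.95 without het 2 and -0.25 without null 2. Nup214, the FG protein of the export platform, gave 10.33, 9.70, 10.92 and 10.12 in het and 10.07, 8.88, 10.76 and 9.47 in null, with 2 arrays of null below the lowest of het and a difference of -0.47 (0.42), which was -0.17 without null 2, -0.26 without het 3 and -0.80 without null 3. Its partner mbo gave 10.27, 9.48, 10.54 and 10.63 in het and 10.35, 9.85, 10.39 and 10.11 in null, with het on both sides of null and a difference of -0.05. Rae1 stood at -0.27 and Gle1 at 0.03.

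In the basket all 3 means were lower in null. Nup153, with the array values above, had the smallest unadjusted limma p of the 28 for this comparison (0.196; exact permutation p = 0.286) at -0.41 (standard error 0.29), which was -0.18 without null 2, -0.26 without het 3 and -0.61 without null 3, and Nup50 stood at -0.13. Mgtor gave 8.76, 8.34, 9.42 and 8.89 in het and 8.70, 6.84, 9.45 and 8.72 in null. Its difference of -0.42 (standard error 0.53) came from null 2, at 6.84 the only array under 8, and was 0.11 without it.

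The inner ring showed -0.47 for Nup205 (standard error 0.57), -0.21 for Nup154 (0.26), -0.17 for Nup93-1, -0.10 for Nup188, and 0.01 for Nup93-2 and Nup35 each. The value of Nup205 was -0.11 without null 2, -0.15 without het 3 and -0.97 without null 3. Nup154 was -0.45 without the array labelled het 2 and then past an unadjusted p under 0.05 (limma, adjusted p = 0.969). The outer ring showed -0.40 for Elys (standard error 0.80), -0.34 for Nup98-96, -0.23 for Nup107, -0.17 for Nup133, -0.14 for Nup44A, -0.03 for Nup37, 0.01 for Nup160, 0.03 for Nup75, 0.12 for Sec13 and 0.13 for Nup43. Nup43, a small propeller of the Y, gave 10.18, 9.77, 10.12 and 10.05 in het and 10.23, 10.21, 10.38 and 9.81 in null, with 3 null arrays above all het arrays and null 4 near the lowest. Of the channel, Nup54 stood at -0.27 and Nup62 at -0.05.

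The median of the 28 depended on the arrays labelled het 2 and null 2, which were the lowest for most genes. It was -0.36 without het 2 and 0.05 without null 2, where the direction of 11 of the 28 genes turned. With neither het 2 nor null 4, a pair that earlier results of these data had set apart, it was -0.26. Between arrays of the same number, 27 of 28 genes were lower in null 4 than in het 4 (mean difference -0.51) and 21 in null 1 than in het 1 (-0.10). Of the other 2 pairs, 13 genes were lower in null 2 (-0.08) and 10 in null 3 (0.08).

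**Figure D3:**
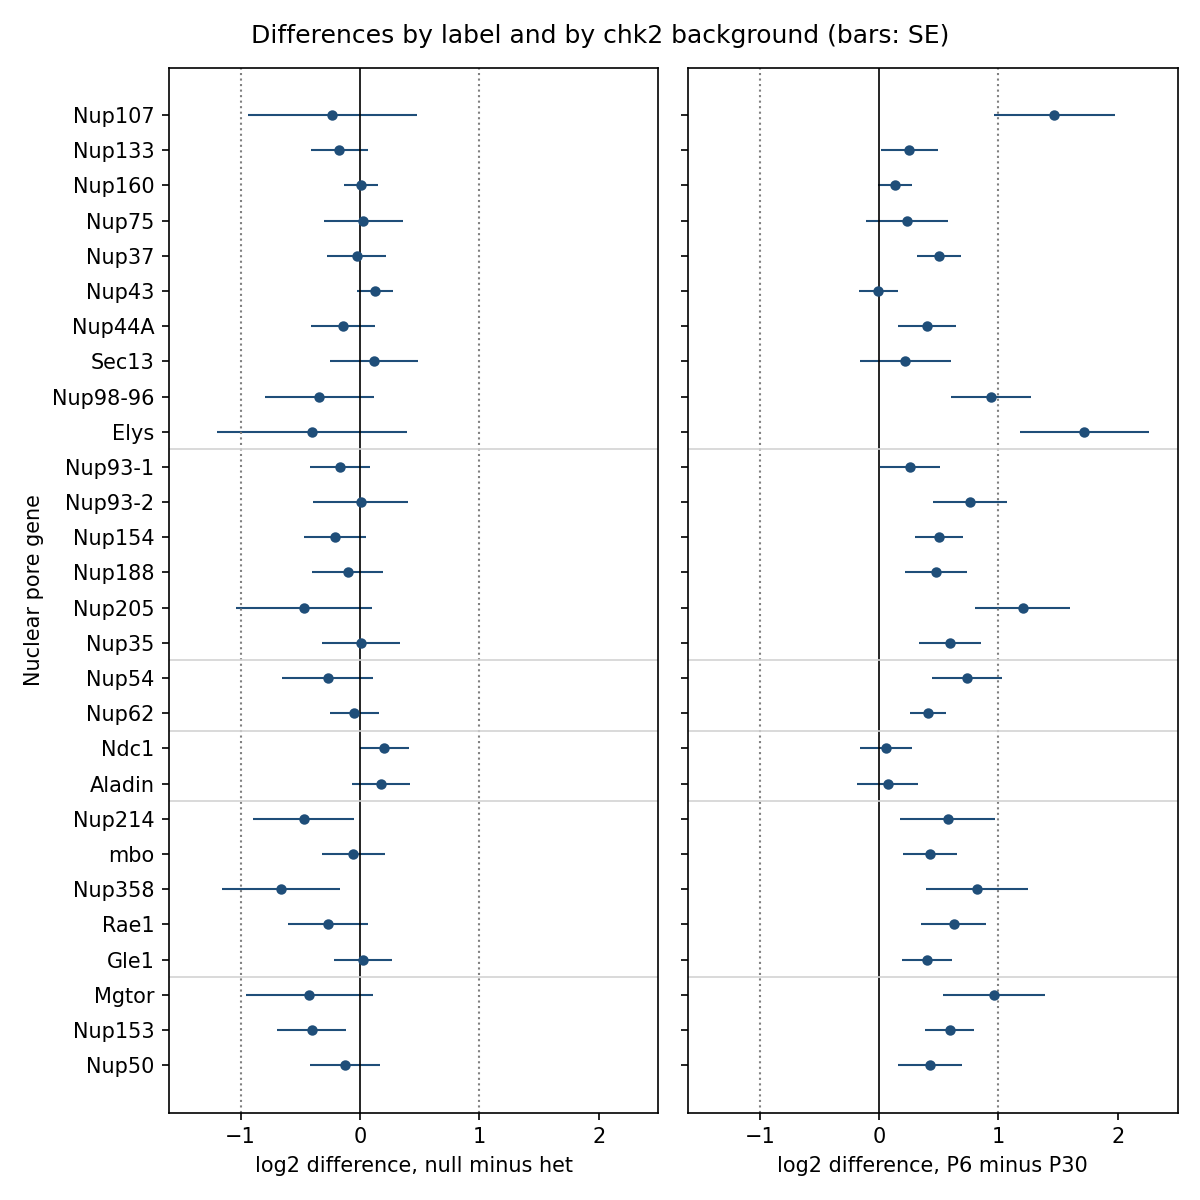
Points are log2 differences of the 28 pore genes, null minus het (left) and P6 minus P30 (right), with bars of 1 standard error from limma and dotted lines at a 2-fold change, 4 arrays against 4. On the left the points lie between -0.66 and 0.20 and the bars of all genes except Nup153, Nup214 and Nup358 cross 0, and on the right 27 of 28 points lie above 0, with Elys, Nup107 and Nup205 beyond 2-fold.

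Whether null differed from het in the same way in both backgrounds was tested as an interaction. Within P30 14 genes were higher and 14 lower in null, with a median of -0.04, and within P6 4 were higher and 24 lower, with a median of -0.25. Of the 28, 12 were lower in both backgrounds and 2 higher in both. For 1 gene, Ndc1, the interaction had an unadjusted p under 0.05, as it had for 1.13% of all probe sets. Ndc1 gave 10.56 and 10.17 in het against 10.84 and 11.16 in null in P30, and 10.77 and 10.95 in het against 10.80 and 10.46 in null in P6. Both null arrays were above both het arrays in P30, and in P6 they lay on either side of het 3. The difference null minus het was 0.64 in P30 and -0.23 in P6, and these differed by -0.86 (standard error 0.31; limma, adjusted p = 1.00). The interaction of Ndc1 was no longer past the unadjusted threshold without het 2 (-0.67), het 3 (-0.96), het 4 (-0.77), null 2 (-0.71) or null 4 (-0.69), and was past it without each of the other 3 arrays.

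The next 2 genes by this test had the same direction and did not pass it. For mbo, whose arrays are given above, the effect in P6 minus that in P30 was -0.56 (standard error 0.44). It ran from -0.95 without het 1, where it passed the unadjusted threshold (limma, adjusted p = 0.996), to -0.17 without het 2. Nup133, a Y subunit that contacts curved membrane, gave 10.84 and 10.20 in het against 10.77 and 10.49 in null in P30, and 11.07 and 11.04 in het against 10.98 and 10.21 in null in P6. Null 4 alone was low in P6, and the effect in P6 minus that in P30 was -0.57 (standard error 0.46), from -0.95 without null 3 to -0.18 without null 4.

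The shared movement of the pore genes over the arrays can be described by the correlation of each pair of genes after the label means are removed. Over the 378 pairs of the 28 genes, all on the same 8 arrays, the median Pearson's r was 0.775, 97.6% of pairs were above 0 and 80.4% above 0.5. Over pairs of all 7511 genes above the median signal the median was 0.02, with 26.3% above 0.5. The value was 0.78 among the 13 genes on chromosome 2 and 0.75 among the 15 on other chromosomes. With label means kept and genes not scaled, a single component held 83.6% of the variance of the 28 genes over the arrays. Genes with a large spread, such as Elys and Nup107, weigh most in that value, and no other gene set was set beside it. Leaving out any 1 array gave a median r between 0.75 and 0.85. The most similar pair was Nup98-96 and Nup153, at 0.997, and Nup54 had the highest median r with the other members, 0.92.

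Only 4 genes had a median r with the others under 0.6. These were Nup160 (0.13), Ndc1 (0.31), Aladin (0.52) and Nup43 (0.595). Nup160 gave 11.12, 11.14, 11.18 and 10.79 in P30 and 11.01, 11.22, 11.11 and 11.44 in P6. Its highest array was null 4, in which 24 of the 28 genes lay below their own mean, and its r with Aladin was -0.70. Aladin gave 9.25, 8.81, 9.13 and 9.53 in P30 and 9.37, 9.08, 9.82 and 8.74 in P6, with null 2 second only to null 3. For Ndc1 null 2 was the highest array, although it was the lowest for 13 of the other genes.

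The size of the movement differed widely between genes. The range over the arrays was 10.3-fold for Elys, 8.98-fold for Nup107, 6.13-fold for Mgtor, 5.94-fold for Nup205 and 5.39-fold for Nup358, and the median SD over the 28 was 0.45. Nup37 and Nup358, which are neighbours on chromosome 3R, had ranges of 2.06-fold and 5.39-fold.

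The movement of other genes with these arrays differed with their length, and the pore genes are shown beside them in bins of genomic span taken from RefSeq. Over the 28 genes, span and SD over the arrays had a Spearman correlation of 0.50, and over 7511 genes above the median signal one of 0.13, with genes sharing arrays and no test made. In other genes of 268 to 1307 bases the median difference P6 minus P30 was -0.24, and in those of 3442 to 7300 bases it was 0.25, with 1.13% and 15.7% higher in P6 at an unadjusted p under 0.05. The pore genes in these bins had medians of 0.31 (2 genes) and 0.50 (7 genes), in the bin of 2094 to 3441 bases 0.40 (10 genes, beside 0.18 for others), and above 7300 bases 0.88 (4 genes, beside 0.17). Without the pore genes, the median pairwise r was 0.31, 0.02, 0.09, 0.19 and 0.12 in the 5 bins from the shortest to the longest genes.

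**Figure D4:**
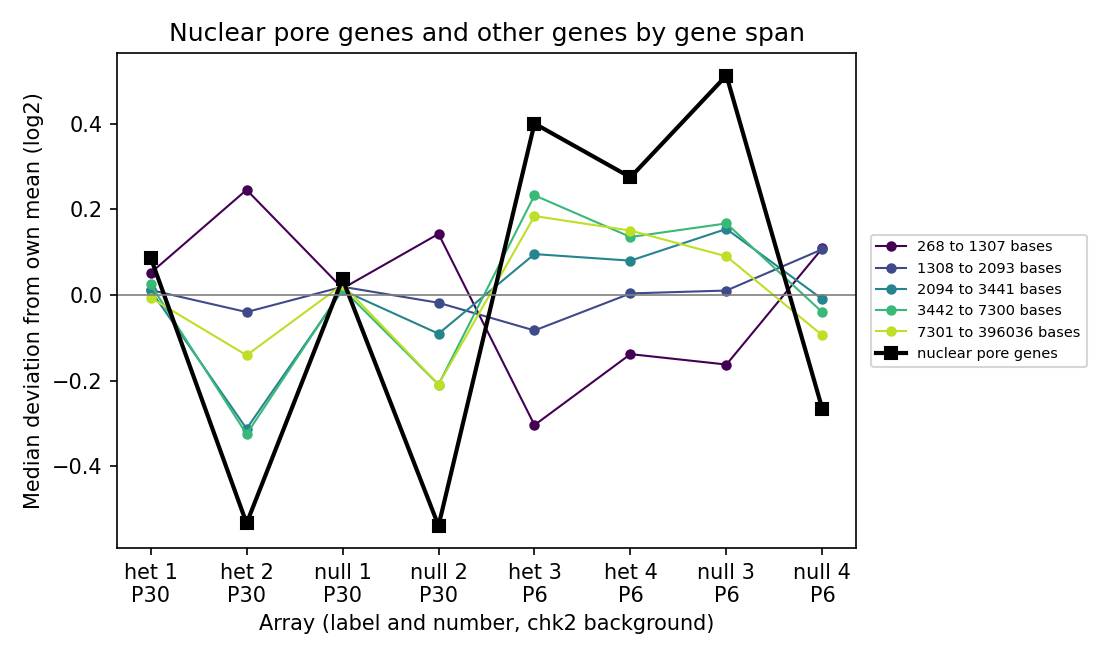
Lines are the median, over genes above the median signal, of the log2 signal minus the gene's own mean on each of the 8 arrays, in 5 bins of genomic span without the pore genes, and black squares are the median of the 28 pore genes. The pore genes run from -0.54 in null 2 to 0.51 in null 3. Genes of 3442 to 7300 bases follow them at smaller size (-0.32 in het 2 to 0.23 in het 3), and the shortest genes run the other way in het 2 and het 3 (0.25 and -0.30).

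Other measures of the arrays moved with the pore genes in part. The 5 prime minus 3 prime signal of control probe sets differed between het 3 and null 3, the arrays highest for the pore genes. It was -2.05 and -1.31 for actin, -3.30 and -2.41 for eIF-4a and -1.95 and -1.55 for GAPDH. In het 2 and null 2 the same controls gave -1.53 and -1.66, -3.03 and -2.68, and -2.09 and -1.91. The mean signal of the 3 BioB spike-in probe sets, which are added to each hybridization, was highest in het 2 and null 2 (11.1 and 11.0, against 10.1 to 10.8 in the other 6), the arrays lowest for the pore genes. The signal of 18S ribosomal RNA at its 5 prime probe set was 12.2, 12.5, 11.5 and 12.1 in P30 and 12.2, 10.2, 10.4 and 10.6 in P6, lower in 3 of the 4 P6 arrays than in any other, with het 3 among the P30 arrays. Of the follicle cell markers 7 of 7 had a higher mean in P6 (median 0.63), with list means of 8.43 to 8.998 in P30 and 8.68 to 9.71 in P6, highest in null 3 and lowest in null 2 like the pore genes. Of the germ line markers 7 of 10 were higher in P6 (median 0.23; list means 10.15 to 10.58 and 10.44 to 10.83). Muscle sheath genes (3 of 3, median -0.30) and fat body genes (3 of 3, median -0.79) were lower in P6, with Lsp1 genes not among those measured. Midgut genes, 7 of 7 higher in null, were highest in null 2 (list mean 10.4, others 5.77 to 9.01). The part of gene length, hybridization or cell composition in the difference between the backgrounds was not tested.

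Genes that work with the pore were set beside it in the same fits. They were 44 measured genes of transport receptors, the Ran cycle, mRNA export, SUMO and the LINC complex with its lamina partners (without Ote). Of these, 32 were higher in P6 and 12 lower, with a median of 0.22. Among all probe sets 45.1% were higher, and among the 9431 above the median signal 5103 were. Of the 44, 7 (15.9%) were higher at an unadjusted p under 0.05, beside 5.31% of all probe sets and 9.46% of those above the median signal. Ranbp21, an exportin, gave 9.76, 8.96, 9.37 and 8.51 in P30 and 11.10, 10.07, 10.86 and 9.35 in P6, where null 4 again fell among the P30 arrays, a difference of 1.20 (standard error 0.42). The exportin of importin alpha, Cse1, was higher by 0.42 (0.15) and the importin Kap-alpha1 by 0.33 (0.13).

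In mRNA export, 9 of 14 genes were higher in P6 and 5 lower, with a median of 0.09. At an unadjusted p under 0.05, 3 of the 14 (21.4%) were higher, beside 5.31% of all probe sets. These were xmas, of the TREX-2 complex at the basket (0.78, standard error 0.24), and thoc5 and Hpr1 of the THO complex (0.55 and 0.41, standard errors 0.18 and 0.15). Of the other THO genes listed, tho2 differed by 0.53 (0.31), thoc6 by -0.36 (0.24) and thoc7 by -0.28 (0.20). Every P6 array of thoc5 lay above every P30 array, as for 2.64% of all probe sets, and for Sumo every P6 array lay below every P30 array, at a difference of -0.14 (standard error 0.09). These 2 of the 44 (4.55%) compare with 5.75% of all probe sets in either direction. At the lamina MAN1, a LEM domain protein, was higher by 0.47 (standard error 0.18) and Ote itself by 1.15 (0.39), both past the same threshold. Of the remaining lists, Tnpo-SR, which imports splicing factors, differed by 0.57 (standard error 0.24), velo, a SUMO protease, by 0.72 (0.40) and RanBP3 by 0.40 (0.32), none of them past it. Ran itself differed by -0.16 (0.08). The value of Ote includes het 2, at 7.27, where het 1 had 9.26 and the P6 het arrays 9.66 and 9.29. Its value without het 2 is not given here.

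Between null and het, 15 of these 44 genes were higher and 29 lower in null. A single gene of the 44 (2.27%, where 2.25% of all probe sets passed) had an unadjusted p under 0.05, Nxf3, a germ line relative of the mRNA export receptor, which gave 8.78, 8.27, 8.08 and 9.05 in het and 8.31, 7.60, 7.60 and 8.10 in null. The labels overlapped, with null 1 and null 4 within the het arrays, and the difference was -0.65 (standard error 0.26; limma, adjusted p = 1.00). The interaction was past an unadjusted p under 0.05 for 1 of the 44 (2.27%, beside 1.13% of all probe sets), Fs(2)Ket, the fly importin beta, at -0.68 (standard error 0.23).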

How the data were processed

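Total RNA of the 8 ovary samples was amplified, labelled and hybridized by the authors. The deposited log2 values, 1 per probe set and array, were made with RMA (background correction, quantile normalization and summary, as the method is generally defined) with Affymetrix Expression Console 1.4.1, as the submitters' notes state, whereas the methods name another console. That the base is log2 was read from their range, 2.37 to 14.5. Of 18952 probe sets 183 controls were left out, and 18769 were fitted without a filter on dim signals. Annotation gave 1 gene for 13647, several for 402 and none for 4720, with symbols updated through a RefSeq gene table of Release 6, from which chromosome and span were also read.

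Differences were fitted by limma 3.58.1 (R 4.3.3; linear model and empirical Bayes), null and het without a covariate, P6 and P30 with the label as covariate, and the interaction in a fit of 4 groups. Benjamini-Hochberg adjustment ran over all probe sets. The study's thresholds, 2-fold and an unadjusted p under 0.05, were kept. Single genes were also compared by exact two-sided permutation over the 8 arrays. The fit was also run on simulated data whose noise was independent between probe sets and arrays, unlike the genes here, which moved together. No result rests on that run. Replicates were separate pools by the labels, and the sources used here do not say which were hybridized together. Same-numbered null and het arrays correlated at -0.0018, 0.380, 0.536 and -0.0993 in their deviations from the label means (Pearson's r over probe sets). Arrays of different numbers ran from -0.462 to 0.180. Numbers 2 and 3 thus correlated more than any of these, and numbers 1 and 4 lay within their range. With no known pairing, numbers were not taken as pairs, and a fit with them as a block is given below.

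The members and lists were chosen with earlier results of these data known. All 28 genes were named with their differences. Array values were given for the 8, 6 and 3 genes with the smallest p for label, background and interaction, for genes whose groups did not overlap, for those past 2-fold with an unadjusted p under 0.05 and for both Nup93 copies, and those of Nup160 and Aladin were added after their values were seen. Bins of span were chosen after seeing the data. Promoter motifs were not analysed here.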

Additional observations from a re-analysis of the deposited data

Results flagged for a closer look

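In 3 pore genes and in Ote, a single array lay far from the other 3 of its label, by Dixon's ratio of the gap to the whole range (past the critical value for 4 arrays). In the array labelled het 2, Nup93-1 lay at 9.49 against 10.29 to 10.36 in the other het arrays (ratio 0.920), Nup44A at 9.78 against 10.48 to 10.63 (ratio 0.8294) and Ote at 7.27 against 9.26 to 9.66 (ratio 0.832). In null 2, Nup154 lay at 11.40 against 11.87 to 11.95 (ratio 0.846). These were 4 of 58 groups examined, where chance alone gives about 5%, and the genes share arrays. For Ndc1, the effect of the label in P6 minus that in P30 was -0.86 (standard error 0.31; past an unadjusted p under 0.05 by limma, adjusted p = 1.00), with both null arrays above both het arrays in P30 only.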

How the results depend on the processing

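Of the pore genes, 0 passed an adjusted p under 0.05 in either comparison under any setting tried (unmoderated, trended and robust tests, cyclic loess or median centring, dim probe sets left out, array weights, no label term or background block, replicate block, each background or label alone, each array left out). For null against het, the number at an unadjusted p under 0.05 was 0 as reported, 5 with the replicate block, 1 in P30 alone (Ndc1), 1 in P6 alone (Nup154, at -0.44) and 1 without het 2 and null 4 (Nup188, at -0.48), and 0 to 1 with 1 array left out. The replicate numbers share no known pairing. With them as a block Nup153, Elys, Nup358, Nup214 and Nup205 passed that threshold by limma, all lower in null, with adjusted p = 0.997 for each. No other call of the pore genes changed in that fit. The share of all probe sets at this threshold was counted only for the fit as reported (2.25%). Whether the counts under other settings are particular to the pore genes can therefore not be said. Of the 28 genes, the direction turned for 9 in P30 alone, 5 in P6 alone, 4 with array weights, 4 without het 2 and null 4 and 1 to 11 with 1 array left out (11 without null 2). Among the 8 genes with the smallest p these were Ndc1 in P6 alone (-0.23), Nup154 in P30 alone (0.0199) and Mgtor without null 2 (0.11, from -0.76 to 0.11 with each array left out). For P6 against P30 it turned for 2 genes in het alone, 4 in null alone and 1 to 2 with 1 array left out. The median of the 28 genes ranged from -0.36 to 0.05 with 1 array left out.

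Over all probe sets, 28 passed 2-fold and an unadjusted p under 0.05 for null against het. The count was 15 with a plain one-way ANOVA, 63 with array weights, 39 with the replicate block, 61 in P30 alone and 98 in P6 alone. It was 132 without het 2 and null 4, 100 at a fold of 1.5, 13 at a fold of 3, and 13 to 98 with 1 array left out. At an adjusted p under 0.05 there were 0, and 1 without het 2 and null 4.

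For P6 against P30, the 10 pore genes at an unadjusted p under 0.05 became 4 with the ANOVA (Elys, Nup62, Nup205 and Nup153). They became 3 in het alone (Nup107, Nup205 and Nup93-2), 0 in null alone and 1 to 15 with 1 array left out. The share of all probe sets at this threshold was not counted under these settings. The 3 past 2-fold became 0 in null alone, 7 at a fold of 1.5, 1 at a fold of 3 (Elys), and 1 to 6 with 1 array left out, while the median of the 28 stayed between 0.33 and 0.63. Over all probe sets the 307 became 191 with the ANOVA, 170 in het alone, 976 at a fold of 1.5, 30 at a fold of 3, and 148 to 672 with 1 array left out. The interaction count of 1 became 0 with an unmoderated test and 0 to 3 with 1 array left out. The range of the members' mean was 1.13 to 1.21 and the median r 0.746 to 0.850 with 1 array left out, the last added after seeing the data.

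With 4 arrays a group, and 2 within a background, small differences could not be resolved, and the fits on 1 label or background rest on 4 arrays. Each pore gene had 1 probe set, so a mean over probe sets is the same value.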
